A study of Mus musculus with 12 samples.

Results

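The macrophage colony-stimulating factor axis is described here across cultures of mouse bone marrow stroma and bone-associated cells. Its 5 members were taken by name from the deposited count table: the ligands Csf1 and Il34, their shared receptor Csf1r, and the related colony-stimulating factors Csf2 and Csf3. All 5 were among the 53819 entries of the table. Csf1, Il34 and Csf1r passed the filter on low counts, and Csf2 and Csf3 did not.

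CSF1 and IL-34 are secreted ligands that bind the same receptor tyrosine kinase, CSF1R, on monocytes, macrophages and osteoclast precursors. Stromal cells and osteoblasts are known sources of CSF1 in bone, and loss of either CSF1 or its receptor leaves mice short of macrophages and osteoclasts. IL-34 is best known from neurons and keratinocytes, where it maintains microglia and Langerhans cells. CSF2 (GM-CSF) and CSF3 (G-CSF) act through other receptors, on myeloid cells broadly and on the neutrophil lineage.

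RNA was sequenced from 12 libraries, 3 in each of 4 groups, all from wild-type mice. BM sorted and BM nonsorted were marrow cells grown on collagen I under hypoxia in alpha MEM lacking ascorbic acid. After the first passage the BM sorted cells were taken by flow cytometry as cells carrying CD51 and Sca-1 but none of CD45, CD31, F4/80 and Ly6C, while BM nonsorted cells were left as they were. BAC depleted and BAC nondepleted were bone-associated cells released from hind-limb bone by collagenase I, and the depleted cells had passed a magnetic removal of CD45+, Ly6C+ and F4/80+ cells. The sources used here do not give strain, age or the culture time of the bone-associated cells. Nothing in the labels says that the libraries of a group came from separate animals, so p-values measure the spread between these libraries, which may be technical.

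Libraries held 27937709 to 32164725 counts, and levels are in CPM, counts scaled to a common library size with TMM factors, with errors as SD over 3 libraries. The labels' cell types could be checked against markers: the summed CPM of 13 macrophage markers spanned 12.3 to 13.9 in BM sorted, 4660 to 5290 in BM nonsorted, 24 to 74 in BAC depleted and 11900 to 13600 in BAC nondepleted. The summed CPM of 11 stromal markers was 52300 to 61100 in BM sorted, 39600 to 43000 in BM nonsorted, 28200 to 35600 in BAC depleted and 31900 to 53100 in BAC nondepleted. BAC depleted libraries stood apart in several ways. BAC depleted 1 held 1380 CPM of Xist, against at most 0.667 CPM in any other library. BAC depleted 3 had the lowest scaling factor, 0.8018, and mitochondrial transcripts took 1.82% to 2.62% of BAC depleted counts against 1.08% to 1.36% of the counts of the other 9 libraries. Results that rest on BAC depleted 1 are also given without it where it decides them.

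The start of Csf1 is shown first because Csf1 was, per length of exon, the most abundant member in 11 of 12 libraries. The sequence is RefSeq's window around the gene start on the minus strand of build GRCm38.p6, chr3:107760420-107760719, with 250 bases before the start and 50 after it. Capitals mark a match to the 10-base NF-kB consensus at -154 to -145, read on the opposite strand, and 2 copies of GGGCGG at -51 to -46 and -41 to -36, counted from the start.
Csf1: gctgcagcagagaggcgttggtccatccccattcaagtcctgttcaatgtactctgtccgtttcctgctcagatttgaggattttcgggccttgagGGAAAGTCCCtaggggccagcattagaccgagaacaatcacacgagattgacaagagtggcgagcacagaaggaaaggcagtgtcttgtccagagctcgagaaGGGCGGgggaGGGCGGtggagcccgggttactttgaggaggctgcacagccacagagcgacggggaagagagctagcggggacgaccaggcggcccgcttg
Searched on both strands, the NF-kB consensus was held by 8.46% and GGGCGG by 35.7% of 32851 RefSeq windows of the same length. TATAAA, held by 13.6% of the windows, was not in these letters. The window held 16 CpG dinucleotides, against a median of 7, and its GC content was 58.7%, against a median of 52.7%. A match is a description of the letters and no statement on binding.

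Csf1, the macrophage growth factor itself, was abundant in every library. It had 1008, 1176 and 1094 CPM in BM sorted libraries 1 to 3, against 1450, 988.7 and 610.1 CPM in BM nonsorted libraries. Sorted marrow cells lay close together and inside the range of the nonsorted ones, so the groups overlapped. In BAC depleted libraries Csf1 had 1101, 1565 and 2759 CPM, against 894.6, 1141 and 1444 CPM in BAC nondepleted libraries. BAC depleted 3 was the highest of all 12, and BAC depleted 1 lay inside the nondepleted range. Group means were 1093 ± 84.0 CPM in BM sorted, 1016 ± 421 CPM in BM nonsorted, 1808 ± 855 CPM in BAC depleted and 1160 ± 275 CPM in BAC nondepleted (SD, n = 3 each). In this order of means, BAC depleted, BAC nondepleted, BM sorted and BM nonsorted, the ranges of all neighbours overlapped.

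Il34, the second ligand of the receptor, was low in marrow cells and in undepleted bone-associated cells and high in depleted ones. It had 6.68, 4.22 and 4.84 CPM in BM sorted libraries, against 4.64, 4.10 and 3.40 CPM in BM nonsorted libraries. Those ranges overlapped at a few CPM, which stood for 116 to 199 counts a library. BAC depleted libraries had 71.4, 285.6 and 180.5 CPM, against 6.14, 15.6 and 16.1 CPM in BAC nondepleted libraries. All 3 depleted libraries lay above every other library of the series. Within that group BAC depleted 1 was the lowest and BAC depleted 2 the highest. Group means were 5.25 ± 1.28 CPM in BM sorted, 4.05 ± 0.626 CPM in BM nonsorted, 179 ± 107 CPM in BAC depleted and 12.6 ± 5.61 CPM in BAC nondepleted (SD, n = 3 each). Ordered by mean, only the BAC depleted group stood clear of its neighbour. BAC nondepleted 1 lay inside the BM sorted range.

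Csf1r, the receptor, was a transcript of the unpurified cultures. It had 0.739, 1.02 and 1.38 CPM in BM sorted libraries, which were 22, 34 and 45 counts, against 475, 418 and 352 CPM in BM nonsorted libraries. In BAC depleted libraries it had 1.50, 1.38 and 2.04 CPM, from 47, 39 and 49 counts, against 1066, 944 and 955 CPM in BAC nondepleted libraries. No purified library came within the range of an unpurified one, and no BM nonsorted library came within that of BAC nondepleted. The 2 purified groups met at 1.38 CPM. Group means were 1.05 ± 0.321 CPM in BM sorted, 415 ± 61.6 CPM in BM nonsorted, 1.64 ± 0.354 CPM in BAC depleted and 988 ± 67.6 CPM in BAC nondepleted (SD, n = 3 each).

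Csf2 and Csf3 were at the limit of detection. Csf2 had 1 count in all 12 libraries together, in BAC nondepleted 1. Csf3 had 11 counts in all, spread over 6 libraries, with at most 4 in any one. Csf3 counts were 0, 1 and 0 in BM sorted and 3, 1 and 0 in BM nonsorted, 1, 0 and 1 in BAC depleted and 4, 0 and 0 in BAC nondepleted. A count of 0 allows up to 3 counts, which was 0.0878 to 0.125 CPM in these libraries, with counting error alone considered. No difference between groups was detectable for either gene at this depth, and neither entered the tests.

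**Figure D1:**
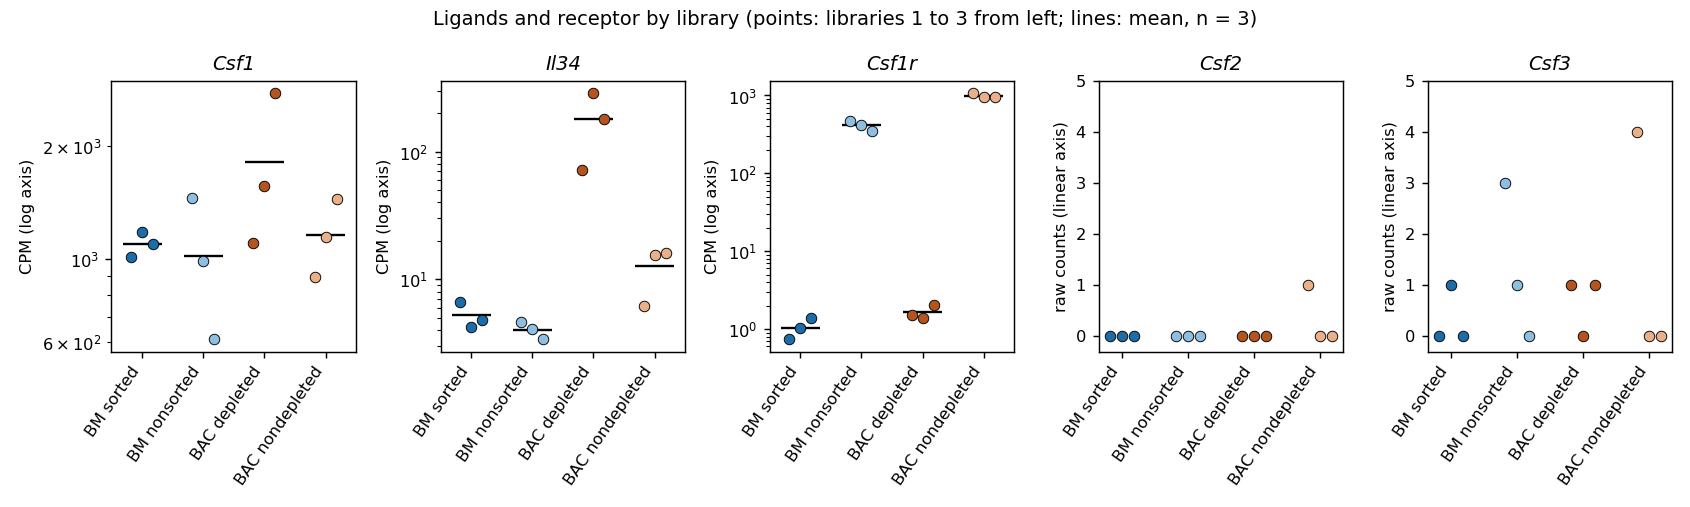
Levels of the 5 members in each library, in CPM on log axes for Csf1, Il34 and Csf1r and in raw counts on a linear axis for Csf2 and Csf3; points are libraries and lines are group means. Csf1 stayed between 610.1 and 2759 CPM in all libraries, Il34 was above 70 CPM only in the BAC depleted libraries, and Csf1r was at or below 2.04 CPM in all purified libraries.

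Sorting of the marrow cultures was the first comparison, tested like the others with edgeR's quasi-likelihood test and Benjamini-Hochberg adjustment over 15698 genes. Csf1r was 395-fold lower in BM sorted than in BM nonsorted cells, a log2 fold change of -8.62 ± 0.29 (SE, adjusted p = 2.65e-08), and it was lower in 3 of 3 libraries. Neither ligand passed the test. Csf1 differed by 0.10 ± 0.37 on the log2 scale (adjusted p = 0.956), with a 95% interval of -0.71 to 0.92. Il34 differed by 0.37 ± 0.49 (adjusted p = 0.834), with a 95% interval of -0.72 to 1.46. Thus 1 of the 3 tested members was called, and it was lower. Of all genes, 6.23% were called, 0.166% higher and 6.06% lower. In bulk libraries such as these, fewer cells of a type and less RNA per cell cannot be told apart.

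Depletion of the bone-associated cells was accompanied by opposite changes of receptor and second ligand. Csf1r was 604-fold lower in BAC depleted than in BAC nondepleted cells, a log2 fold change of -9.24 ± 0.29 (adjusted p = 1.36e-08). Il34 was 14.2-fold higher, a log2 fold change of 3.83 ± 0.52 (adjusted p = 0.000368), with a 95% interval of 2.67 to 4.99 and 3 of 3 depleted libraries above all nondepleted ones. Csf1 did not pass, at 0.64 ± 0.37 (adjusted p = 0.197), with a 95% interval of -0.18 to 1.46. The Csf1 difference was 0.19 without BAC depleted 3 (adjusted p = 0.681) and 0.90 without BAC depleted 1 (adjusted p = 0.0802). So 1 member was called higher and 1 lower, where 37.3% of all genes were called, 17.4% higher and 19.9% lower. A call was thus common in this comparison. Leaving out BAC depleted 1, or any other single library, left Il34 called, with log2 fold changes of 3.32 to 4.21.

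The purified preparations of both niches were compared as BM sorted against BAC depleted. Il34 was 34.1-fold lower in BM sorted cells, a log2 fold change of -5.09 ± 0.56 (adjusted p = 0.000106), and 3 of 3 sorted libraries lay below all depleted ones. Csf1r was 1.55-fold lower in BM sorted cells, at -0.64 ± 0.23 (adjusted p = 0.046). That call rested on 101 counts in BM sorted and 135 counts in BAC depleted, and it was lost when any of 10 of the 12 libraries was left out (adjusted p of 0.0192 to 0.148 over the 12 omissions). Csf1 did not pass, at -0.73 ± 0.37 (adjusted p = 0.131). Without BAC depleted 1 it was -0.99 ± 0.36 and passed (adjusted p = 0.0474). Without BAC depleted 3, the library highest in Csf1, it was -0.29 ± 0.33 and did not pass (adjusted p = 0.505). With 2 of 3 members called lower, the background was 47.4% of all genes, 22.9% higher and 24.6% lower. Niche, dissociation and way of purification changed together here and cannot be told apart.

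Between the unpurified preparations, both Csf1r and Il34 were lower in BM nonsorted than in BAC nondepleted cells. Csf1r was 2.38-fold lower, a log2 fold change of -1.25 ± 0.20 (adjusted p = 0.00208). Il34 was 3.11-fold lower, at -1.64 ± 0.49 (adjusted p = 0.0295), and all 3 marrow libraries lay below all 3 bone-associated ones. Csf1 differed by -0.19 ± 0.37 (adjusted p = 0.723), with a 95% interval of -1.01 to 0.63. Here 31.7% of all genes were called, 14.9% higher and 16.8% lower. Niche and dissociation changed together in this comparison and cannot be told apart, nor can culture, since the culture time of the bone-associated cells is not given. The Il34 call was lost when any BM nonsorted library, BAC nondepleted 2 or BAC nondepleted 3 was left out (adjusted p of 0.00874 to 0.0901 over the 12 omissions). The Csf1r difference moved with the macrophage transcripts: 11 of 13 macrophage markers were lower in BM nonsorted cells and none higher. As a log2 ratio to the summed macrophage markers of its own library, Csf1r was -3.58 ± 0.17 in BM nonsorted and -3.68 ± 0.15 in BAC nondepleted (SD, n = 3 each). That ratio differed by 0.11 (exact permutation test, two-sided, p = 0.5, where 0.1 is the smallest p that 3 against 3 allows).

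Whether sorting of marrow cells and depletion of bone-associated cells acted alike was tested as the change on sorting minus the change on depletion. Niche, dissociation and way of purification changed together in this contrast too and cannot be told apart. Il34 differed, by -3.45 ± 0.69 on the log2 scale (adjusted p = 0.0184), which is the sorting difference of 0.37 less the depletion difference of 3.83. The difference was not past the threshold without BM sorted 2 (adjusted p = 0.0522) or without BM sorted 3 (adjusted p = 0.0576). For Csf1 it was -0.54 ± 0.52 (adjusted p = 0.563) and for Csf1r 0.61 ± 0.31 (adjusted p = 0.247). The call of 1 member lower stood beside 8.06% of all genes called, 5.08% higher and 2.99% lower. The 5 comparisons share libraries with each other, so they are not separate evidence.

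**Figure D2:**
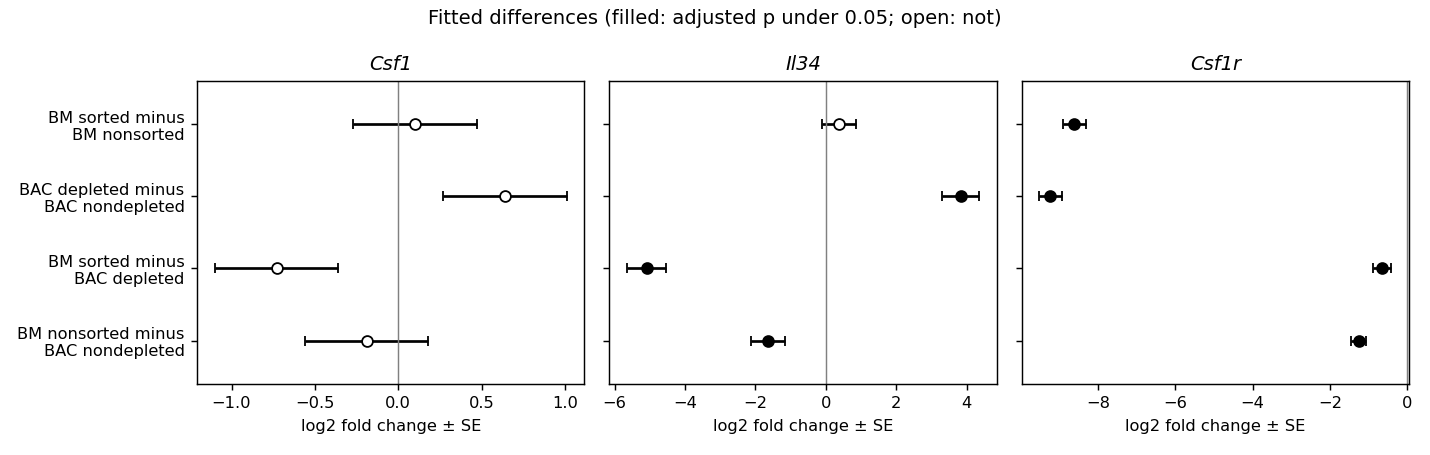
Log2 fold changes with approximate SE for Csf1, Il34 and Csf1r in the 4 comparisons between groups; filled points have an adjusted p under 0.05. Csf1 was not called in any of them, Il34 was called in all but the sorting comparison, and Csf1r was called in all 4 with its largest difference on depletion, -9.24.

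Ligand was then set against receptor per length of exon, as CPM per kilobase of the union of a gene's exons. Csf1 averaged 207 ± 15.9 in BM sorted, 192 ± 79.7 in BM nonsorted, 342 ± 162 in BAC depleted and 220 ± 52.1 in BAC nondepleted (CPM per kilobase, SD, n = 3 each). On the same scale Csf1r averaged 0.181 ± 0.0556 in BM sorted, 71.9 ± 10.7 in BM nonsorted, 0.284 ± 0.0613 in BAC depleted and 171 ± 11.7 in BAC nondepleted. Il34 averaged 2.68 ± 0.652 in BM sorted, 2.07 ± 0.320 in BM nonsorted, 91.5 ± 54.7 in BAC depleted and 6.44 ± 2.87 in BAC nondepleted. Per length, Csf1 was thus the most abundant of the 3 in every group mean.

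Both ligands together exceeded the receptor in 11 of 12 libraries. The sum of Csf1 and Il34 per length was 1520, 1280 and 878 times Csf1r in BM sorted libraries, against 3.37, 2.61 and 1.92 times in BM nonsorted libraries. It was 946, 1850 and 1740 times Csf1r in BAC depleted libraries, against 0.935, 1.37 and 1.7 times in BAC nondepleted libraries. BAC nondepleted 1 was the library in which the receptor was higher than the ligands. The ratios of purified and unpurified libraries did not come near each other, and the receptor differed more between them than the ligands did.

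**Figure D3:**
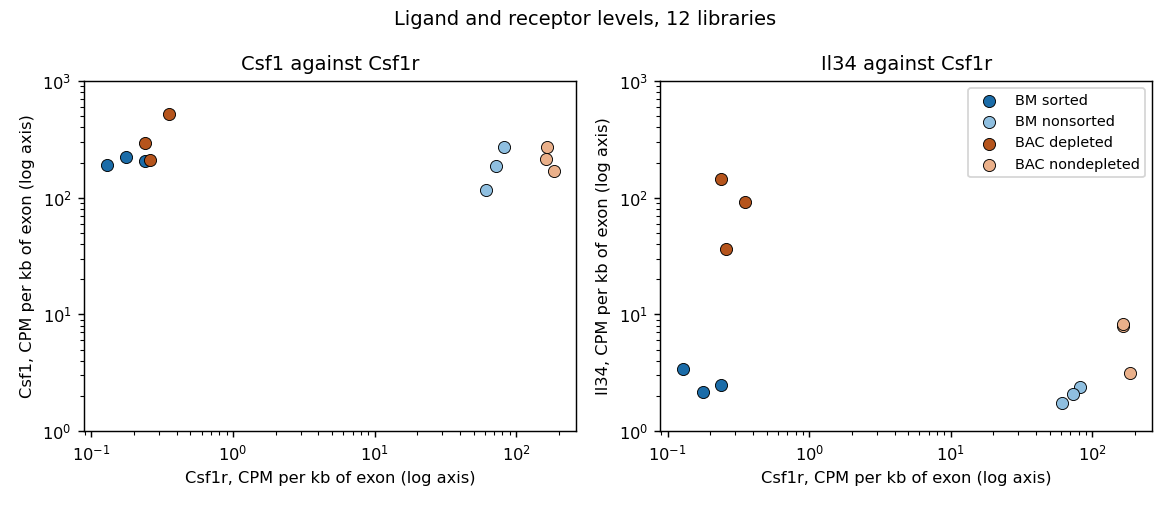
Csf1 (left) and Il34 (right) against Csf1r, each in CPM per kilobase of exon on log axes, 1 point per library. Purified libraries lie at the left with Csf1r of 0.128 to 0.354 and unpurified ones at the right with 61.0 to 185, while Csf1 keeps a similar height and Il34 is high only in BAC depleted libraries, from 36.4 to 146.

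The balance of the ligands also differed between groups. Il34 made up 1.75%, 0.959% and 1.18% of both ligands per length in BM sorted libraries, against 0.856%, 1.11% and 1.48% in BM nonsorted libraries. It made up 14.9%, 33.0% and 15.0% in BAC depleted libraries, against 1.82%, 3.55% and 2.92% in BAC nondepleted libraries. Marrow groups overlapped, and the depleted libraries lay above all others. A ratio within a library needs no scaling between libraries, and the log2 ratio of Il34 to Csf1 counts was -3.45 ± 0.86 in BAC depleted and -6.62 ± 0.51 in BAC nondepleted (SD, n = 3 each). That difference of 3.17 had the smallest p the design allows (exact permutation test, two-sided, p = 0.1), and so had the differences of -4.28 between BM sorted and BAC depleted and of -1.27 between BM nonsorted and BAC nondepleted. Sorting gave 0.17 (exact permutation test, two-sided, p = 0.6).

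Csf1 was also read against the stromal transcripts of its own library. The log2 ratio of Csf1 to the summed stromal markers was -5.68 ± 0.21 in BM sorted and -5.43 ± 0.60 in BM nonsorted, a difference of -0.25 (exact permutation test, two-sided, p = 0.6). It was -4.25 ± 0.80 in BAC depleted and -5.28 ± 0.17 in BAC nondepleted, a difference of 1.03 (exact permutation test, two-sided, p = 0.1). BM sorted and BAC depleted cells differed by -1.43 (p = 0.1 in the same exact test), and the unpurified groups by -0.15 (p = 0.8 in the same exact test). The sum was mostly collagen: Col1a1, Col1a2 and Col3a1 made up 46.4% to 83.3% of it in BAC depleted and 93.3% to 96.5% in BAC nondepleted libraries. Col1a1 fell on depletion, to 5151 ± 1521 CPM in BAC depleted against 16630 ± 6077 CPM in BAC nondepleted cells (adjusted p = 0.00281), while Pdgfrb was higher, at 573.9 ± 296 CPM in BAC depleted against 238.6 ± 62.3 CPM in BAC nondepleted cells (adjusted p = 0.0123). Of the 11 stromal markers, 3 were higher and 2 lower on depletion, where 17.4% of all genes were called higher and 19.9% lower. Their median log2 fold change was 0.54 against 0.05 over all tested genes. With other denominators the difference on depletion turned its sign, to -1.69 without the 3 collagen genes (exact permutation test, p = 0.3) and to -0.62 against Pdgfrb alone (exact permutation test, p = 0.4). With the same 2 denominators in this order, BM sorted and BAC depleted cells differed by only -0.22 and -0.5 (exact permutation test, p = 0.8 and 0.6). The unpurified groups differed more, by -1.34 and -1.08 (exact permutation test, p = 0.2 and 0.1), and sorting gave -0.58 and -0.03 (exact permutation test, p = 0.5 and 0.8). The direction of Csf1 relative to stromal transcripts on depletion thus depended on the transcripts chosen, as did the size of the differences between marrow and bone-associated cells. Both alternatives were picked after the data were seen.

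The receptor left after purification was compared with macrophage markers, as the level after as a share of the level before. Csf1r kept 0.255% of its nonsorted level in BM sorted cells, with a 95% exact counting interval of 0.207% to 0.309%. In BAC depleted cells it kept 0.163% of its nondepleted level, with an interval of 0.136% to 0.193%. Counting intervals here and below pool the counts of a group and leave out the spread between libraries. Of 13 macrophage markers, 10 kept a smaller share than Csf1r in BM sorted and 9 in BAC depleted. Adgre1, which encodes the F4/80 antigen used in both gates, kept 0.0207% in BM sorted, from 6 counts, and 0.00245% in BAC depleted, from 2 counts. Ptprc, which encodes CD45, had 4 counts in BM sorted and 0 in BAC depleted, where it was at least 6663-fold lower.

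Some markers kept more than Csf1r. Mertk, a receptor for apoptotic cells, kept 14.4% in BM sorted and 13.3% in BAC depleted, and Cd14, a lipopolysaccharide co-receptor, kept 4.42% in BM sorted and 4.79% in BAC depleted. Cd68, a lysosomal glycoprotein, kept 0.62% in BM sorted and 0.487% in BAC depleted. Lyz2 (lysozyme) kept 0.51% in BAC depleted but less than Csf1r in BM sorted, at 0.167%. The share in BAC depleted pools libraries that ran from 7.12 to 60.6 CPM of Lyz2, so its place above Csf1r there is uncertain. C1qa, C1qb, Fcgr1, Itgam and Msr1 had no counts in BAC depleted cells, so most defining macrophage markers were at or near 0 there.

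**Figure D4:**
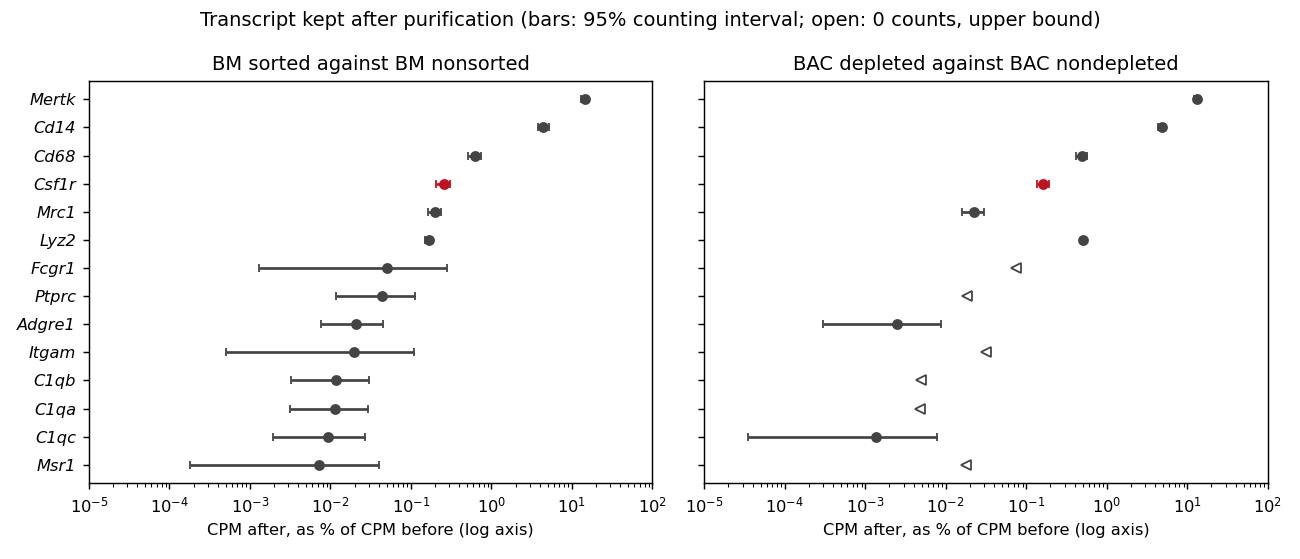
Level after purification as a percentage of the level before, on a log axis, for Csf1r (red) and 13 macrophage markers in marrow (left) and bone-associated cells (right); bars are 95% counting intervals and open triangles are upper bounds for genes with 0 counts. Csf1r, at 0.255% and 0.163%, kept more than most markers and less than Mertk, Cd14 and Cd68 in both panels.

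Csf1r lies beside the stromal receptor gene Pdgfrb, the next protein-coding gene in the RefSeq annotation. Csf1r counts were 0.16%, 0.194% and 0.295% of Pdgfrb counts in BM sorted libraries, and 93% to 105% in BM nonsorted ones. They were 0.394%, 0.151% and 0.477% in BAC depleted libraries, and 305% to 558% in BAC nondepleted ones. The part of reads from the neighbouring gene in the few Csf1r counts of purified cells was not tested, and the sources used here do not give the strand setting of the counting.

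Most other receptors for these ligands were lower after purification, as the macrophage markers were. Of 6 genes, 4 were lower and none higher on sorting, beside 6.06% of all genes called lower. The median log2 fold change was -4.07 against 0.00 over all tested genes. On depletion 4 were lower and 1 higher (2 higher without BAC depleted 3), beside 19.9% of all genes called lower and 17.4% higher. The median there was -5.32 against 0.05. Csf2rb and Csf2rb2, which encode the common beta chain and its near-identical mouse copy, had 1 count each in BM sorted, against 1898 and 2264 counts in BM nonsorted. In BAC depleted cells Csf2rb had 0 counts and Csf2rb2 had 3, against 2739 and 2810 counts in BAC nondepleted. Csf2rb was at least 915-fold lower there. How reads were split between these copies is uncertain. Csf3r, the receptor of CSF3, had 2 counts in BM sorted against 212 in BM nonsorted, 103-fold lower (95% counting interval 28.3 to 860), and 1 count in BAC depleted against 611 in BAC nondepleted, 612-fold lower (109 to 24200).

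Csf2ra, the ligand-binding chain for CSF2, fell on both purifications and was still measured after them. It had 9.17, 7.55 and 6.46 CPM in BM sorted libraries, against 25.4, 27.6 and 22.9 CPM in BM nonsorted libraries, a log2 fold change of -1.71 ± 0.34 (adjusted p = 0.0112). In BAC depleted libraries it had 19.1, 7.36 and 6.92 CPM, against 38.1, 36.2 and 42.9 CPM in BAC nondepleted libraries, a log2 fold change of -1.81 ± 0.34 (adjusted p = 0.00257). The groups did not overlap in either pair, and BAC depleted 1 was the highest of the purified libraries. So the alpha chain was still counted in cells whose beta chain was at or near 0.

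Ptprz1 and Sdc1 encode surface proteins that IL-34 is known to bind besides CSF1R: a receptor-type phosphatase and the proteoglycan syndecan-1. Ptprz1 had 18.9, 46.5 and 44.8 CPM in BM sorted libraries, against 35.2, 26.4 and 31.1 CPM in BM nonsorted libraries. In BAC depleted libraries it had 0.127, 47.0 and 1.50 CPM, against 0.0336, 0.0727 and 0 CPM in BAC nondepleted libraries. All 6 marrow libraries were above 18 CPM, while BAC depleted 2, the library with the highest Il34, was at the top of their range and held nearly all of the BAC depleted counts. BM sorted and BAC depleted cells did not differ past the threshold, at 1.18 ± 1.24 on the log2 scale (adjusted p = 0.46). Its ratio of BAC depleted over BAC nondepleted, from counts pooled over libraries, was 455 (adjusted p = 0.0114 in edgeR's test). The 95% counting interval of 155 to 2210 leaves out the spread between libraries, which was wide in BAC depleted. Without BAC depleted 2 the fitted log2 fold change of Ptprz1 was 4.27, against 8.66 with that library, and Ptprz1 was still called (adjusted p = 0.0264). BM nonsorted exceeded BAC nondepleted in Ptprz1 by a ratio of 861 (294 to 4180; adjusted p = 0.00961). Sdc1 averaged 312.6 ± 4.85 CPM in BM sorted and 110.4 ± 54.9 CPM in BAC depleted, a log2 fold change of 1.50 ± 0.34 (adjusted p = 0.00528), and it was higher also in BM nonsorted than in BAC nondepleted, by 1.46 ± 0.34 (adjusted p = 0.011). Of the 6 receptors, 1 was higher and none lower in BM sorted against BAC depleted cells, where 47.4% of all genes were called. In BM nonsorted against BAC nondepleted cells, where 31.7% of all genes were called, 2 were higher and 2 lower. Of those 2 lower, Csf2rb lost its call in 6 of 12 omissions of a library (adjusted p up to 0.139) and Csf3r in 4 (up to 0.0793).

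Signalling genes below CSF1R that are largely restricted to blood cells moved with the receptor. Of 12 genes, 11 were lower on sorting and 12 on depletion, beside 6.06% and 19.9% of all genes called lower. Medians were -6.05 against 0.00 and -7.07 against 0.05 over all tested genes. Tyrobp, the adaptor DAP12, had 1 count in BM sorted against 9464 in BM nonsorted, 9240-fold lower (95% counting interval 1660 to 365000), and 0 counts in BAC depleted, where it was at least 6410-fold lower. Inpp5d, the lipid phosphatase SHIP1, was at 0.0620 ± 0.0524 CPM in BM sorted against 69.2 ± 10.8 CPM in BM nonsorted cells, and at 0.0424 ± 0.0734 CPM in BAC depleted against 139.4 ± 5.44 CPM in BAC nondepleted cells. In the unpurified comparison 6 of the 12 were lower in BM nonsorted cells and none higher, beside 16.8% of all genes called lower. Between the purified groups 2 were higher in BM sorted and none lower, beside 22.9% of all genes called higher and 24.6% lower. The lipid kinase subunit Pik3cg was at 1.63 ± 0.317 CPM in BM sorted and 0.192 ± 0.179 CPM in BAC depleted cells (log2 fold change 2.99 ± 0.48, adjusted p = 0.000807). These counts moved with single libraries, to 4 higher without BAC depleted 1 and to 2 lower without BAC depleted 3.

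Broadly made signalling genes were called about as often as genes in general, or less. Of 12, 1 was called on sorting, beside 6.23% of all genes, and the median was -0.10 against 0.00 over all tested genes. On depletion 1 was higher (3 without BAC depleted 1) and 2 were lower, beside 37.3% of all genes called, with a median of 0.04 against 0.05. Grb2, an adaptor that recruits SOS to activated receptors, was lower in both purifications, by -0.57 ± 0.10 (adjusted p = 0.0045) on sorting and by -0.95 ± 0.10 (adjusted p = 6.4e-05) on depletion. Pik3r1, the regulatory subunit of class I PI3-kinase, had 523, 636.3 and 479.6 CPM in BAC depleted libraries, against 133, 159.1 and 145.8 CPM in BAC nondepleted libraries. No depleted library came near the nondepleted range, and the log2 fold change was 1.90 ± 0.17 (adjusted p = 1.57e-05). Sorting gave no such difference in Pik3r1, at 177 ± 38.6 CPM in BM sorted and 144.9 ± 3.82 CPM in BM nonsorted, and the purification effects differed by -1.61 (adjusted p = 0.00428). Src, Jak2 and Shc1 were among 4 genes of this list that were higher in BM sorted than in BAC depleted cells, and Pik3r1 and Stat5b were the 2 that were lower. Of all genes, 22.9% were called higher and 24.6% lower in that comparison.

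**Figure D5:**
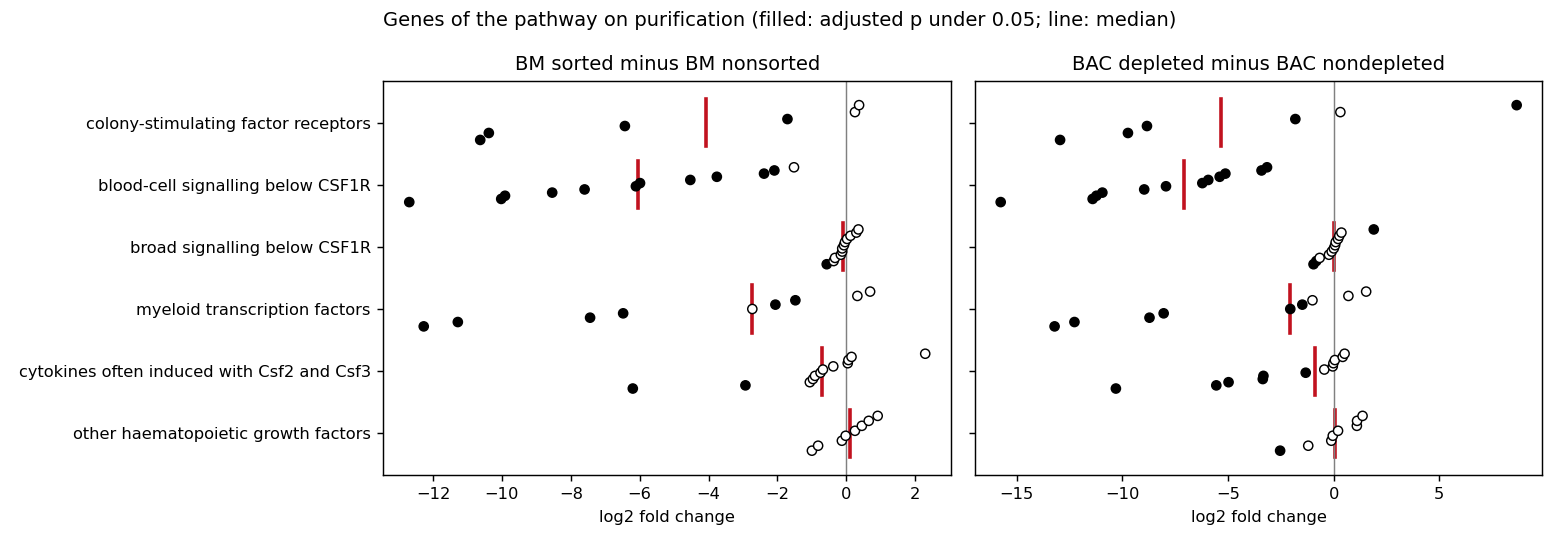
Log2 fold changes of the tested genes of 6 lists around the axis, on sorting (left) and on depletion (right); filled points have an adjusted p under 0.05 and red lines are list medians. Blood-cell signalling genes lie far to the left, with medians of -6.05 and -7.07, and broadly made signalling genes lie around 0.

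Myeloid transcription factors, among them activators of the Csf1r gene, were lower after purification in part. Of 9, 6 were lower on sorting and 6 on depletion, beside 6.06% and 19.9% of all genes called lower. None was higher (2 on depletion without BAC depleted 1), and medians were -2.73 against 0.00 and -2.05 against 0.05 over all tested genes. Spi1 (PU.1), a factor that activates Csf1r itself, had 1 count in BM sorted against 3549 in BM nonsorted, 3460-fold lower (95% counting interval 621 to 137000). It had 1 count in BAC depleted against 6638 in BAC nondepleted, 6650-fold lower (1190 to 263000). Irf8, a monocyte factor, averaged 0.0944 ± 0.0318 CPM in BM sorted and 17.1 ± 2.40 CPM in BM nonsorted cells. Ikzf1 had 0 counts in both purified groups, at least 654-fold lower in BM sorted and at least 1090-fold lower in BAC depleted. Runx1, also a factor of bone and cartilage lineages, was at 164 ± 28.8 CPM in BM sorted and 351 ± 230 CPM in BAC depleted cells. In BM nonsorted against BAC nondepleted cells 5 of the 9 were lower and none higher, beside 31.7% of all genes called. In BM sorted against BAC depleted cells 3 were lower and none higher, beside 47.4% of all genes called, and of the 3 the call of Runx1 was lost in 9 of 12 omissions of a library (adjusted p up to 0.167).

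Genes that inflammatory signals induce in stromal cells together with Csf2 and Csf3, most of them cytokines, were measured, unlike those members. Of 12 genes, 2 were lower on sorting and 6 on depletion, beside 6.06% and 19.9% of all genes called lower. None was higher (1 on depletion without BAC depleted 1), and medians were -0.72 against 0.00 and -0.88 against 0.05 over all tested genes. Ccl2, the monocyte chemoattractant, averaged 7.40 ± 3.01 CPM in BM sorted and 56.4 ± 10.9 CPM in BM nonsorted cells, a log2 fold change of -2.93 ± 0.47 (adjusted p = 0.00253). It averaged 9.24 ± 5.92 CPM in BAC depleted and 430.1 ± 84.4 CPM in BAC nondepleted cells, a log2 fold change of -5.55 ± 0.52 (adjusted p = 3.07e-05). Cxcl2, a neutrophil chemoattractant, fell to 0.0972 ± 0.168 CPM in BAC depleted, against 112.4 ± 32.6 CPM in BAC nondepleted cells. Tnfaip3, the NF-kB feedback inhibitor A20, was higher in BM sorted, at 46.3 ± 7.43 CPM, than in BAC depleted cells, at 3.53 ± 1.79 CPM, a log2 fold change of 3.70 ± 0.36 (adjusted p = 6.37e-05). Lif and Il11, cytokines that signal through gp130, were higher in BM nonsorted than in BAC nondepleted cells, by 3.15 ± 0.83 for Lif (adjusted p = 0.018) and 2.23 ± 0.73 for Il11 (adjusted p = 0.041). The Il11 call was lost in 8 of 12 omissions of a library (without BM sorted 2 or 3, BM nonsorted 1 or 2, BAC depleted 3, or any BAC nondepleted library; adjusted p up to 0.131) and with no low-count filter (adjusted p = 0.0622). The Lif call was lost without BM nonsorted 2, BAC nondepleted 1 or BAC nondepleted 2 (adjusted p up to 0.0672) and with no filter (adjusted p = 0.0621). The neutrophil chemoattractants Cxcl5 and Cxcl1 were lower there, by -6.52 ± 1.04 for Cxcl5 (adjusted p = 0.00199) and -3.39 ± 0.86 for Cxcl1 (adjusted p = 0.0153, and 0.0539 without BM nonsorted 2). Counts in the purified comparison were 4 higher and 4 lower of 12, where 47.4% of all genes were called, and in the unpurified one 2 higher and 6 lower, where 31.7% were called. Several purified calls hung on single libraries: Cxcl1 was -2.89 with all libraries and -1.21 without BAC depleted 2 (adjusted p = 0.0921), and was lost also without BM sorted 2 or BM sorted 3. Nfkbiz lost its call in 8 of 12 omissions (adjusted p up to 0.126), Lif in 6 (up to 0.087) and Il11 in 4 (up to 0.0809).

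Among 11 other haematopoietic growth factors, 8 passed the low-count filter. None was called on sorting, beside 6.23% of all genes. On depletion, where 37.3% of all genes were called, 1 was lower. It was Tnfsf11, which encodes RANKL, the osteoclast factor that acts together with CSF1: it averaged 2.76 ± 3.25 CPM in BAC depleted and 16.1 ± 7.08 CPM in BAC nondepleted cells, a log2 fold change of -2.53 ± 0.71 (adjusted p = 0.019). It was not called without BAC depleted 1 (adjusted p = 0.0507), without BAC nondepleted 2 (adjusted p = 0.0642), with no low-count filter (adjusted p = 0.0566) or with only the groups compared (adjusted p = 0.0942). Tnfsf11 was higher in BM sorted, at 24.8 ± 4.12 CPM, than in BAC depleted cells, by 3.16 ± 0.73 (adjusted p = 0.00551). Igf1, a growth factor also made by macrophages, was lower in BM sorted than in BAC depleted cells, at 101.5 ± 37.8 CPM against 403.4 ± 114 CPM (log2 fold change -1.99 ± 0.38, adjusted p = 0.00192). In total 1 was higher and 3 were lower of 8 in BM sorted against BAC depleted, where 47.4% of all genes were called, and 1 was lower in BM nonsorted against BAC nondepleted, where 31.7% were called. Of the 3, Il15 was -2.51 with all libraries and -0.30 without BAC depleted 2 (adjusted p = 0.312), and its call was lost also without any BM sorted library. The 1 lower in the unpurified groups was Igf1, whose call was lost without any BM nonsorted library or BAC nondepleted 3 (adjusted p up to 0.109).

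The genes whose log2 levels followed each member most closely over the 12 libraries are given as a description, since all genes that differ between the groups follow one another. Csf1r was followed by Tnip3 (Pearson r = 0.998), Rapgef5 (0.998), Blnk (0.997), Cd300c2 (0.997) and Irf8 (0.997). Il34 was followed by Erlec1 (r = 0.986), Apbb1 (0.98), Arvcf (0.979), Armcx5 (0.978) and Zyg11b (0.978). The closest genes to Csf1 were looser, with Slc1a6 (r = 0.935), Rab18 (0.934), Lats1 (0.933), Stt3b (0.915) and Nfe2l1 (0.908).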

How the data were processed

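The authors deposited raw read counts per gene for 12 libraries in 1 table, named by gene symbol. STAR 2.7.9a, featureCounts from Subread 2.0.1, MultiQC 1.7 and build GRCm39 are named per the submitters' processing notes; the sources used here do not give annotation release or strand setting. Of 53819 entries, 22808 had 0 counts throughout. Counts were fitted with edgeR 4.0.16 (R 4.3.3): TMM, filterByExpr on groups, 1 mean per group, robust quasi-likelihood test, Benjamini-Hochberg over 15698 genes, called at an adjusted p under 0.05. The approximate SE is the fold change divided by the root of F, unreliable near 0 counts. Exon lengths came from GENCODE M21, which is of another build, and served only for levels per kilobase. Ratios added 0.5 counts. Within groups, counts of any pair of libraries differed by more than sampling noise (chi-square per degree of freedom at least 16.8). Members and lists were chosen with earlier results of these data known. Named list genes were up to 3 called genes with the largest rise and 3 with the largest fall per list and comparison, from which the text takes examples. Csf2ra was named after its values were seen. DESeq2 1.42.0, other scalings, no filter, only the groups compared, a replicate block and omission of each library were tried as alternatives. The values of 2 listed genes are not reported here.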

Additional observations from a re-analysis of the deposited data

Results flagged for a closer look

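Il34 was the member whose change on sorting of marrow cells differed from its change on depletion of bone-associated cells. Niche and way of purification changed together in this contrast and cannot be told apart. The change on sorting of marrow cells less the change on depletion of bone-associated cells was -3.45 ± 0.69 on the log2 scale (edgeR's quasi-likelihood test, adjusted p = 0.0184). The parts of this difference were 0.37 ± 0.49 on sorting and 3.83 ± 0.52 on depletion. All 3 BAC depleted libraries were above all 3 BAC nondepleted ones, while the marrow groups overlapped.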

How the results depend on the processing

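Depth limits Csf2, Csf3 and the residual Csf1r, with 3 libraries a group. Of 282 alternatives to the 15 results of Csf1, Il34 and Csf1r, 257 kept direction and call, 22 lost the call, 1 gained it and 2 turned the direction; the causes were not tested. Il34 on depletion and between the purified groups, and Csf1r on sorting, on depletion and between the unpurified groups, remained called in all of theirs. Csf1r between BM sorted and BAC depleted lost its call with no low-count filter (-0.59, adjusted p = 0.0712), with only the groups compared (-0.65, adjusted p = 0.2) and, without single libraries, ranged from -0.88 to -0.44. Il34 between BM nonsorted and BAC nondepleted lost its call with no low-count filter (-1.68, adjusted p = 0.0736) and ranged from -1.97 to -1.43 without single libraries. Its interaction ranged from -3.84 to -2.95, and was -3.30 without BM sorted 2 and -3.39 without BM sorted 3. Csf1 ranged from -0.16 (without BM nonsorted 3) to 0.45 on sorting, from -0.54 to 0.07 (without BM nonsorted 3) between the unpurified groups and from -0.99 (without BAC depleted 1) to -0.29 between the purified groups. Ranges without single libraries were -0.07 to 0.37 for Il34 over Csf1 on sorting, with -0.07 without BM sorted 1 and -0.03 without BM nonsorted 1. They were -0.55 to 0.05 for Csf1 over stromal markers on sorting, with 0.05 without BM nonsorted 1, and -0.46 to 0.15 for the unpurified groups, with 0.15 without BM nonsorted 3. On depletion, Csf1 over stromal markers turned to -1.69 without the collagen genes and to -0.62 against Pdgfrb alone.

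Replicate numbers did not pair the libraries: the correlations of deviations from group means ran from -0.223 to 0.237, with 3 of 12 above 0.1. With the replicate block, Csf1r between the purified groups was -0.64 (adjusted p = 0.0692), Il34 between the unpurified groups was -1.54 (adjusted p = 0.0508), and the interaction had 808 calls, 511 higher and 297 lower, against 1266, 797 and 469.

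Of all genes, 26 were called higher on sorting, 155 with DESeq2, 118 with only the groups compared, 63 with upper quartile scaling, and 6 to 67 without single libraries. Depletion gave 3556 calls with only the groups compared, 1476 higher and 2080 lower, against 5863, 2735 and 3128. Without single libraries, the unpurified comparison had 2949 to 6054 calls, 1366 to 2897 higher and 1543 to 3157 lower. The interaction had 437 to 1612, 328 to 1020 higher and 109 to 688 lower. It had 2446 with DESeq2, 1368 higher and 1078 lower, and 244 lower with no filter. Chosen after seeing the data, the list counts were also run without BAC depleted 1 or BAC depleted 3 and are given beside the main counts where they moved. Of 1345 alternatives to 71 results of list genes, 1239 kept direction and call and 106 lost the call.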
